A study of Arabidopsis thaliana with 8 samples.

Results

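The genes described here are 34 Arabidopsis thaliana genes of pattern-triggered immunity and salicylate signalling, out of 26716 loci that the array's probes cover. They were listed by locus for their known roles, by a rule that uses no measured value but was set with earlier results of these data known: 9 receptors and receptor-bound kinases, 5 genes of MAP kinase and oxidative burst relay, 5 of salicylate synthesis, 8 of EDS1 and NPR signalling, 3 of systemic resistance and 4 response markers. All 34 had a probe that was well above background on all 8 arrays and were tested. The study compared the dominant mutant bil1-1D (bzr1-1D is another name of the allele), 4 samples of which were given 1 µM brassinolide for 3 hours, with Col-0 wild type, 4 samples of which were given DMSO for 3 hours. Both groups were seedlings grown on agar at 22 °C in 16 hours of light and 8 hours of dark, and both had been kept for 14 days on 1 µM brassinazole, which blocks brassinosteroid synthesis. The bil1-1D allele gives a stabilised form of BZR1, a transcription factor of the brassinosteroid pathway, and brassinolide is the most active brassinosteroid. Genotype and hormone changed together, so neither can be credited with a difference. The labels name no pathogen or elicitor.

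In pattern-triggered immunity, receptor kinases at the cell surface bind microbial molecules or the plant's own danger peptides and pass the signal through the co-receptor BAK1, cytoplasmic kinases, MAP kinases and NADPH oxidases. Salicylate, made mainly from isochorismate in this plant, builds on that response: it is sensed by the NPR proteins, and EDS1 with its partners PAD4 and SAG101 raises its synthesis. BAK1 is also a co-receptor for brassinosteroid, and the brassinosteroid pathway is known to restrain immune signalling in seedlings.

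A level is a gene's normalized log2 signal. It is 0 at the 75th percentile of the array, and a step of 1 is a doubling. Each such level can be compared between arrays for 1 gene, but not between genes, since probes differ in brightness. A change is the mean of the bil1-1D brassinolide arrays minus that of the wild-type DMSO arrays ± SE, n = 4 arrays per group, with limma's Benjamini-Hochberg adjusted p over 22082 genes; a gene rose or fell if that p was at most 0.05. The 4 bil1-1D arrays lay on 1 slide and the 4 wild-type arrays on another, and the effect of the slide cannot be told apart from that of the group. The bil1-1D arrays were dimmer, with a 75th percentile of 3033 to 3821 against 4638 to 6153. Arrays of the same group correlated across genes by 0.991 to 0.997, and arrays of different groups by 0.967 to 0.976. Of 5 leaf and stem markers 1 rose and 2 fell, of 4 root markers 1 rose and 1 fell, and of 3 flower markers none passed. Both seed markers tested passed: CRA1 rose by 0.77 ± 0.16 (adjusted p = 0.00462), and SESA1, which was not well above background on any bil1-1D array, was lower there (adjusted p = 0.00722). Of the senescence markers SEN1 rose by 1.04 ± 0.13 (adjusted p = 2.95e-04), SAG20 differed by -0.24 ± 0.12 (adjusted p = 0.126) and SAG12 was not tested. The part of these tissues in the results was not tested. The labels do not say whether the samples were separate cultures, so the spread behind the p-values may be technical. In whole seedlings, fewer cells of a type and less RNA per cell cannot be told apart.

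Of the 34 genes 7 rose and 12 fell, and 15 did not pass. The share called, 55.9% of the members, was that of all genes tested (55.9% called, of which 30.2% of all genes rose and 25.7% fell), so the number of calls is not a result about these genes. Of the genes that, like all members, were detected on every array, 56.3% were called. At least 2-fold, 4 members fell and 0 rose, where 8.09% of all genes changed as much (5.02% fell and 3.07% rose). These 4 were ALD1, EFR, FMO1 and PEPR2. The groups did not overlap for 17 members, 7 higher and 10 lower in bil1-1D with brassinolide, against 52.2% of all genes (28.2% higher and 24.0% lower). The median change was -0.23 for the members and 0.03 for all genes, and the median size of a change was 0.46 against 0.27.

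**Figure D1:**
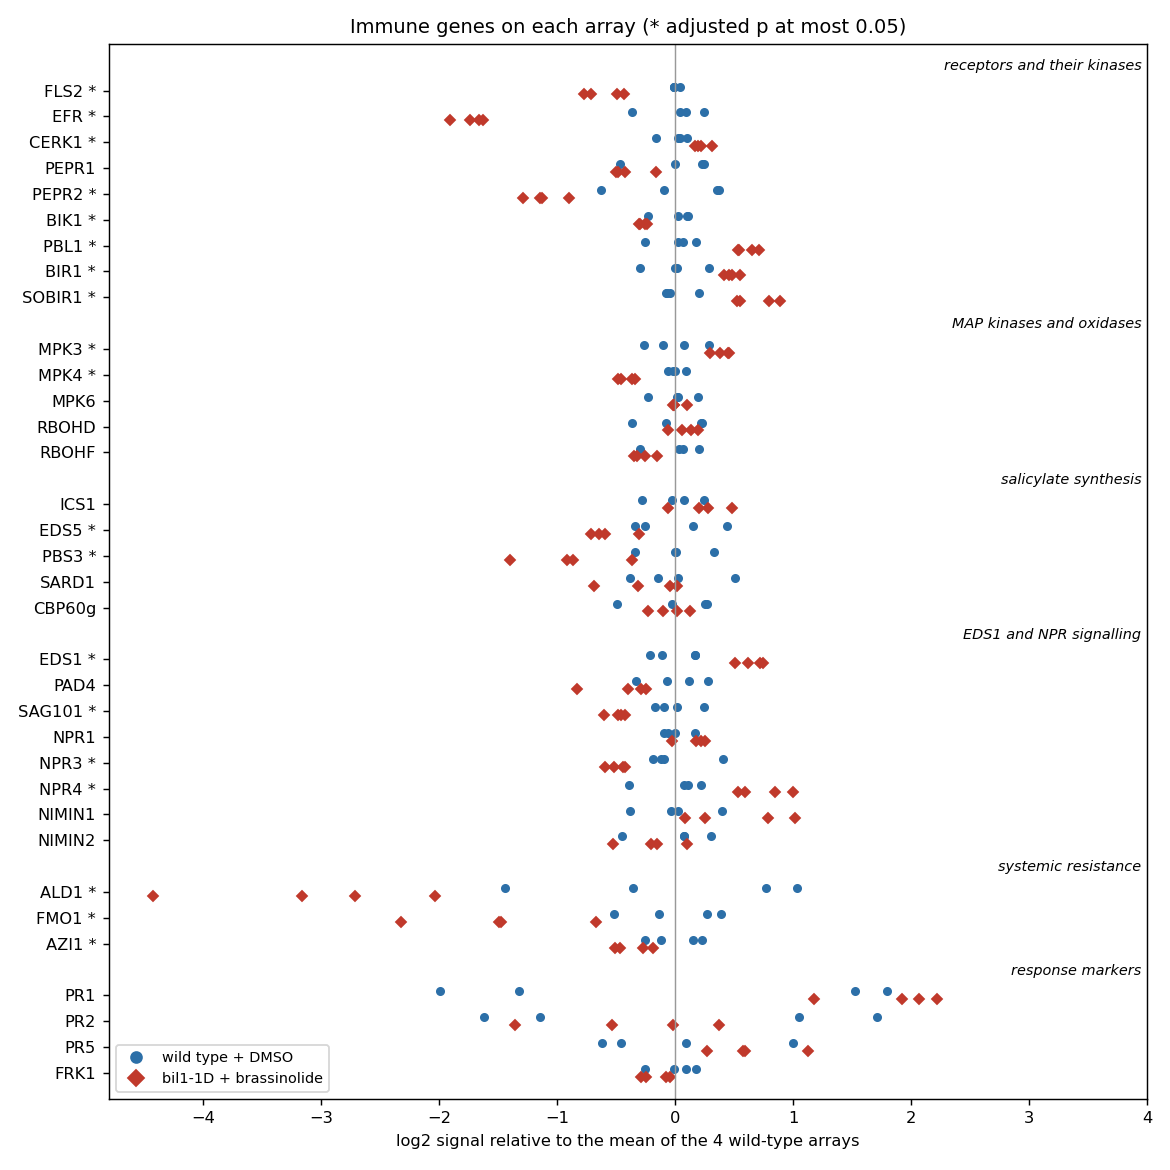
Normalized log2 signal of each of the 34 genes on each array, relative to that gene's mean over the 4 wild-type arrays (horizontal axis, log2). Circles are wild type with DMSO and diamonds bil1-1D with brassinolide, genes are ordered by role, and an asterisk marks an adjusted p of at most 0.05. The receptors move both ways with tight groups, the systemic resistance genes lie to the left, and the wild-type arrays of PR1 and PR2 are spread over more than 3 log2 units.

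Among the 9 receptor and receptor-kinase genes, 4 rose, 4 fell and 1 missed the threshold, where 30.2% of all genes rose and 25.7% fell. The median change of the 9 was -0.28. The receptors of bacterial proteins were lower. FLS2 (AT5G46330), which binds flagellin, read 0.66, 0.94, 0.88 and 0.60 in bil1-1D replicates 1 to 4 and 1.36, 1.36, 1.36 and 1.41 in wild-type replicates 1 to 4. Every bil1-1D value lay below every wild-type value, and the wild-type values were nearly equal. FLS2 fell by 0.60 ± 0.08, which is 1.52-fold (adjusted p = 4.66e-04). EFR (AT5G20480), which binds the bacterial elongation factor EF-Tu, read -1.58, -1.47, -1.50 and -1.75 against 0.40, 0.25, -0.21 and 0.20. The groups were far apart, with the bil1-1D values close together. EFR fell by 1.74 ± 0.13, which is 3.33-fold (adjusted p = 2.93e-05). A second, dimmer EFR probe gave a change of -0.21 ± 0.12, and the mean of both probes gave -0.97, still past the threshold.

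Of the receptors of the plant's own Pep peptides, danger signals released on wounding, PEPR2 fell and PEPR1 did not pass. PEPR2 (AT1G17750) read -1.57, -1.59, -1.73 and -1.34 against -0.07, -0.54, -1.07 and -0.09. The groups did not overlap, although wild-type replicate 3 came near the bil1-1D values. PEPR2 fell by 1.11 ± 0.22, which is 2.17-fold (adjusted p = 0.00319). PEPR1 (AT1G73080) read 1.01, 0.69, 0.67 and 0.75 against 1.42, 1.17, 0.71 and 1.40. Wild-type replicate 3 lay among the bil1-1D values. The PEPR1 difference was -0.40 ± 0.16 (adjusted p = 0.0669, 95% interval -0.77 to -0.02) and did not pass. Without wild-type replicate 3 it was -0.55 and passed (adjusted p = 0.00378). It also passed with normexp on negative controls (-0.40, adjusted p = 0.0443) and with a replicate block (-0.40, adjusted p = 0.0354).

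CERK1 (AT3G21630), the kinase of the chitin receptor, read 1.96, 2.1, 1.98 and 2.01 against 1.83, 1.81, 1.63 and 1.89. The groups lay side by side without overlap. CERK1 rose by 0.22 ± 0.07 (adjusted p = 0.0203), a call that was lost without bil1-1D replicate 2 (0.19, adjusted p = 0.0543). SOBIR1 (AT2G31880), the partner of receptors that lack a kinase domain, read 3.73, 3.98, 4.07 and 3.71 against 3.38, 3.14, 3.11 and 3.1. The bil1-1D arrays were all higher, and wild-type replicate 1 stood above the other wild-type arrays. SOBIR1 rose by 0.69 ± 0.10, which is 1.62-fold (adjusted p = 8.40e-04). BIR1 (AT5G48380), a BAK1-interacting kinase that holds back cell death, read 1.90, 2.03, 1.97 and 1.94 against 1.77, 1.50, 1.19 and 1.48. The bil1-1D values were again all higher, and BIR1 rose by 0.48 ± 0.11 (adjusted p = 0.00728).

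The cytoplasmic kinases that carry the signal from these receptors went opposite ways. BIK1 (AT2G39660), a substrate of the FLS2 and EFR complexes, read 0.95, 0.88, 0.89 and 0.93 against 1.30, 1.21, 0.96 and 1.29. The groups were barely separate, since wild-type replicate 3 was close to the bil1-1D values. BIK1 fell by 0.28 ± 0.08 (adjusted p = 0.0165), and the call was lost with median scaling (-0.22, adjusted p = 0.0563) and with normexp background correction (-0.22, adjusted p = 0.092). Its close relative PBL1 (AT3G55450) read 1.87, 2.04, 1.98 and 1.86 against 1.39, 1.50, 1.07 and 1.35. Every bil1-1D array was higher. PBL1 rose by 0.61 ± 0.09, which is 1.53-fold (adjusted p = 9.76e-04), and its other probe gave 0.34 ± 0.11. With scaling to the spike-in RNAs, which lowered the median change of all genes by 0.12, FLS2, EFR and PEPR2 kept their calls. The calls were lost for CERK1 at 0.10, BIK1 at -0.40, PBL1 at 0.49, BIR1 at 0.35 and SOBIR1 at 0.57 (adjusted p from 0.0645 to 0.823).

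Of the 5 relay genes 1 rose, 1 fell and 3 missed the threshold (30.2% of all genes rose and 25.7% fell). The median change of the 5 was 0.02. MPK3 (AT3G45640), a MAP kinase activated within minutes of elicitor binding, read 2.01, 2.09, 2.08 and 1.93 against 1.92, 1.53, 1.37 and 1.71. The lowest bil1-1D value lay just above the highest wild-type value, which was that of replicate 1. MPK3 rose by 0.39 ± 0.11 (adjusted p = 0.0173). MPK4 (AT4G01370), the MAP kinase of a second branch that restrains immune output, read 1.21, 1.33, 1.31 and 1.19 against 1.77, 1.66, 1.61 and 1.67. The groups were clearly apart on this probe, and MPK4 fell by 0.41 ± 0.05 (adjusted p = 4.30e-04). A second, brighter probe with an outlier spot on wild-type replicate 1 gave only -0.17 ± 0.07 over the arrays it was measured on. That probe stood for the gene when replicate 1 of the wild type was left out, and the call was then lost (-0.17, adjusted p = 0.0626). It was also lost in the authors' value table (-0.54, adjusted p = 0.197). With spike-in scaling both calls were lost, MPK3 at 0.27 (adjusted p = 0.480) and MPK4 at -0.54 (adjusted p = 0.0743).

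MPK6 (AT2G43790), which acts beside MPK3, differed by 0.02 ± 0.09 (adjusted p = 0.877, 95% interval -0.18 to 0.22), with 1.43 to 1.55 in bil1-1D and 1.22 to 1.64 in the wild type. The bil1-1D values lay inside the wider wild-type range. RBOHD (AT5G47910), the oxidase of the elicitor-triggered burst, differed by 0.08 ± 0.14 (adjusted p = 0.648, 95% interval -0.24 to 0.39), with 1.74 to 1.99 against 1.43 to 2.03. RBOHF (AT1G64060), a second NADPH oxidase, read -1.52, -1.59, -1.61 and -1.42 against -1.06, -1.23, -1.56 and -1.20. Again wild-type replicate 3 lay among the bil1-1D values. The RBOHF difference of -0.27 ± 0.10 missed the threshold (adjusted p = 0.0535) and passed without that array (-0.37, adjusted p = 0.00343). It passed in 6 of 21 alternatives, among them normexp background correction (-0.40, adjusted p = 0.00342) and the replicate block (-0.27, adjusted p = 0.0437). With spike-in scaling it did not pass (-0.40, adjusted p = 0.263).

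The salicylate synthesis genes did not move as 1 group: 0 rose, 2 fell and 3 did not pass, with a median change of -0.26. Among all genes 30.2% rose and 25.7% fell. ICS1 (AT1G74710), the isochorismate synthase that opens the pathway, read 1.22, 1.48, 1.56 and 1.76 against 1.52, 1.00, 1.25 and 1.35. The groups overlapped. The ICS1 difference was 0.23 ± 0.14 (adjusted p = 0.202, 95% interval -0.10 to 0.55). EDS5 (AT4G39030), the transporter that takes isochorismate out of the plastid, read 1.89, 2.01, 1.96 and 2.30 against 3.05, 2.35, 2.27 and 2.76. Wild-type replicates 1 and 4 were high, and bil1-1D replicate 4 reached into the wild-type range. EDS5 fell by 0.57 ± 0.18 (adjusted p = 0.0265). That call was lost without bil1-1D replicate 1, 2 or 3 or without wild-type replicate 4, with an adjusted p of 0.0559 to 0.0689, and with normexp background correction (-0.35, adjusted p = 0.267). It was also lost with spike-in scaling (-0.69, adjusted p = 0.0558) and with normexp on negative controls (-0.47, adjusted p = 0.0646).

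PBS3 (AT5G13320), which joins glutamate to isochorismate, read 0.39, 0.92, 0.87 and 1.42 against 2.12, 1.45, 1.80 and 1.79. The groups did not overlap, and bil1-1D replicate 1 was the lowest array while replicate 4 came within reach of the wild type. PBS3 fell by 0.89 ± 0.22, which is 1.86-fold (adjusted p = 0.00929), and its second probe gave -0.75 ± 0.23. The transcription factor genes SARD1 (AT1G73805) and CBP60g (AT5G26920), whose products bind the ICS1 promoter, did not pass. SARD1 differed by -0.26 ± 0.21 (adjusted p = 0.335), with -0.89 to -0.19 in bil1-1D and -0.59 to 0.30 in the wild type. CBP60g differed by -0.05 ± 0.17 (adjusted p = 0.835), with 1.41 to 1.77 against 1.15 to 1.91.

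Of the 8 genes of EDS1 and NPR signalling 2 rose and 2 fell (30.2% and 25.7% of all genes), and the median change of the 8 was -0.02. EDS1 (AT3G48090), the lipase-like protein at the centre of this node, read 0.69, 0.80, 0.93 and 0.90 against 0.35, -0.03, 0.35 and 0.07. Each of the 4 bil1-1D arrays was higher than any of the wild type. EDS1 rose by 0.64 ± 0.10, which is 1.56-fold (adjusted p = 0.00113), and its dimmer probes gave 0.25 ± 0.11 and 0.27 ± 0.13. A closely similar gene lies next to EDS1, AT3G48080, which differed by 0.23 ± 0.21 (adjusted p = 0.378), and cross-hybridization between them was not tested.

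The partners of EDS1 did not follow it. SAG101 (AT5G14930) read 0.76, 0.90, 0.88 and 0.94 against 1.61, 1.27, 1.19 and 1.38. All bil1-1D values were lower, and SAG101 fell by 0.49 ± 0.09 (adjusted p = 0.00272). Of its other probes, 1 gave -0.55 ± 0.09 and the dimmest gave 0.24 ± 0.16, so the call was lost with the mean of its probes (-0.27, adjusted p = 0.0546). PAD4 (AT3G52430) read 1.24, 1.67, 1.78 and 1.82 against 2.35, 1.74, 2.19 and 2.0. Wild-type replicate 2 lay among the bil1-1D values. The PAD4 difference was -0.44 ± 0.17 (adjusted p = 0.0510) and did not pass, while without wild-type replicate 2 it was -0.55 (adjusted p = 0.0238). Its other probes gave -0.40 ± 0.19 and -0.70 ± 0.22. PAD4 passed in 5 of 21 alternatives, among them the mean of probes (-0.51, adjusted p = 0.0436) and normexp on negative controls (-0.48, adjusted p = 0.0295). With the replicate block it did not pass (-0.44, adjusted p = 0.107).

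The salicylate receptor genes NPR3 and NPR4, whose products repress salicylate-induced genes until they bind the hormone, changed in opposite directions. NPR4 (AT4G19660) read -0.56, -0.16, -0.31 and -0.62 against -1.05, -1.56, -0.94 and -1.08. The bil1-1D group lay wholly above, and NPR4 rose by 0.74 ± 0.15, which is 1.67-fold (adjusted p = 0.00427). NPR3 (AT5G45110) read -0.86, -0.76, -0.93 and -0.78 against 0.07, -0.53, -0.46 and -0.43. All bil1-1D values were lower, with wild-type replicate 1 far above the rest. NPR3 fell by 0.49 ± 0.13 (adjusted p = 0.0121).

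NPR1 (AT1G64280), the receptor and coactivator of salicylate-induced genes, differed by 0.16 ± 0.08 (adjusted p = 0.134, 95% interval -0.03 to 0.35), with 0.34 to 0.62 in bil1-1D and 0.27 to 0.53 in the wild type. It passed without bil1-1D replicate 4 (0.22, adjusted p = 0.0425) and without wild-type replicate 1 (0.21, adjusted p = 0.0478). NIMIN1 (AT1G02450), a small protein that binds NPR1, read -0.83, 0.10, -0.13 and -0.66 against -0.89, -1.30, -0.52 and -0.95. The bil1-1D arrays spread over a wide range that overlapped the wild type. The NIMIN1 difference was 0.53 ± 0.24 (adjusted p = 0.0878), and without bil1-1D replicate 1 it was 0.69 (adjusted p = 0.0398). Its relative NIMIN2 (AT3G25882) differed by -0.20 ± 0.18 (adjusted p = 0.385), with 1.59 to 2.22 against 1.67 to 2.42. With spike-in scaling, NPR4 kept its call. EDS1 (0.52, adjusted p = 0.103), SAG101 (-0.62, adjusted p = 0.0548) and NPR3 (-0.62, adjusted p = 0.0698) lost theirs at changes of similar or larger size.

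All 3 systemic resistance genes fell, AZI1 with an unstable call, where 25.7% of all genes fell. The median change of the 3 was -1.49. ALD1 (AT2G13810), the aminotransferase that starts the synthesis of pipecolic acid, a mobile signal of systemic resistance, read -6.29, -3.90, -5.03 and -4.58 against -2.22, -3.31, -0.83 and -1.10. The groups did not overlap, although both were widely spread: bil1-1D replicate 2 was the nearest to the wild type and wild-type replicate 2 the nearest to the mutant. ALD1 fell by 3.09 ± 0.66, which is 8.50-fold (adjusted p = 0.00473, 95% interval -4.61 to -1.57). FMO1 (AT1G19250), which hydroxylates pipecolic acid to its active form, read -1.13, -0.30, -0.29 and 0.52 against 1.05, 0.67, 1.46 and 1.58. The groups stayed apart, with bil1-1D replicate 4 just under wild-type replicate 2. FMO1 fell by 1.49 ± 0.34, which is 2.81-fold (adjusted p = 0.00672). Both calls held in all 21 alternatives run, in which the ALD1 difference ranged from -4.11 to -2.57.

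AZI1 (AT4G12470), a lipid-transfer protein of the azelaic acid response, read 1.1, 1.42, 1.34 and 1.14 against 1.84, 1.76, 1.49 and 1.35. Wild-type replicate 4 lay inside the bil1-1D range. AZI1 fell by 0.36 ± 0.12 (adjusted p = 0.0360). The call was lost in 10 of 21 alternatives, among them those without bil1-1D replicate 1, 3 or 4 or wild-type replicate 1 or 2, where the adjusted p was 0.0528 to 0.0918. The similar gene next to it, EARLI1, rose by 0.48 ± 0.16 (adjusted p = 0.0304), and cross-hybridization was not tested.

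None of the 4 response markers passed, and none had an unadjusted p under 0.05; their median change was 0.24. The PR genes, classical markers of salicylate action, had unequal levels within the wild type. PR1 (AT2G14610) read 0.49, 0.20, 0.34 and -0.55 in bil1-1D and 0.07, -3.05, -0.20 and -3.72 in the wild type. Wild-type replicates 1 and 3 lay within the range of the bil1-1D arrays, and wild-type replicates 2 and 4 lay far below it. The SD over the wild-type arrays was 1.94, and only 3 of 22082 genes had a larger one, against 0.46 over the bil1-1D arrays. The PR1 difference was 1.85 ± 0.86 (adjusted p = 0.102, 95% interval -0.14 to 3.84). It passed without wild-type replicate 1 (2.45, adjusted p = 0.0364). With spike-in scaling it passed at a smaller difference (1.72, adjusted p = 0.0181), so that pass does not reflect a larger change of PR1. The adjusted p of ALD1 also dropped with that scaling, from 0.00473 to 2.95e-07, with its change at -3.21. The cause of the lower p-values was not tested.

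PR2 (AT3G57260), a glucanase that attacks fungal cell walls, read 0.20, 1.54, 1.93 and 1.02 against 3.27, -0.07, 2.61 and 0.41. Here too wild-type replicates 1 and 3 were high and 2 and 4 low, with the bil1-1D arrays mostly between them. The wild-type SD was 1.63, exceeded by 10 genes, and the difference was -0.39 ± 0.78 (adjusted p = 0.693, 95% interval -2.18 to 1.41). Without wild-type replicate 1 it turned to 0.18 (adjusted p = 0.840). PR5 (AT1G75040), a thaumatin-like protein, read 1.26, 1.58, 2.12 and 1.57 against 1.99, 0.53, 1.08 and 0.37. The same wild-type arrays were the higher ones. The PR5 difference was 0.64 ± 0.35 (adjusted p = 0.158, 95% interval -0.18 to 1.45), its other probe gave 0.10 ± 0.36, and without wild-type replicate 1 it was 0.97 and passed (adjusted p = 0.0122).

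FRK1 (AT2G19190), a receptor kinase gene widely used as a readout of flagellin signalling, read 2.90, 3.11, 3.14 and 2.94 against 3.18, 3.28, 2.93 and 3.36. The groups overlapped through wild-type replicate 3. The FRK1 difference was -0.16 ± 0.10 (adjusted p = 0.208, 95% interval -0.40 to 0.07), and without wild-type replicate 3 it was -0.25 and passed (adjusted p = 0.0326). Set side by side, the receptors had 8 of 9 genes past the threshold, the synthesis genes 2 of 5 and the response markers 0 of 4, where 55.9% of all genes were called. With spike-in scaling little of that contrast was left. FLS2, EFR and PEPR2 kept their calls among the receptors, PBS3 among the synthesis genes, and PR1 passed among the markers. CERK1, BIK1, PBL1, BIR1, SOBIR1 and EDS5 lost their calls. The 55.9% does not apply to that scaling, with which 1402 of all genes rose and 3012 fell. As reported, without that scaling, the median size of a change was 0.60 for the receptors, 0.26 for the synthesis genes and 0.51 for the markers. The median SD over the wild-type arrays was 0.18 for the receptors, 0.36 for the synthesis genes and 1.18 for the markers, of which FRK1 alone was near the receptors, at 0.19.

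**Figure D2:**
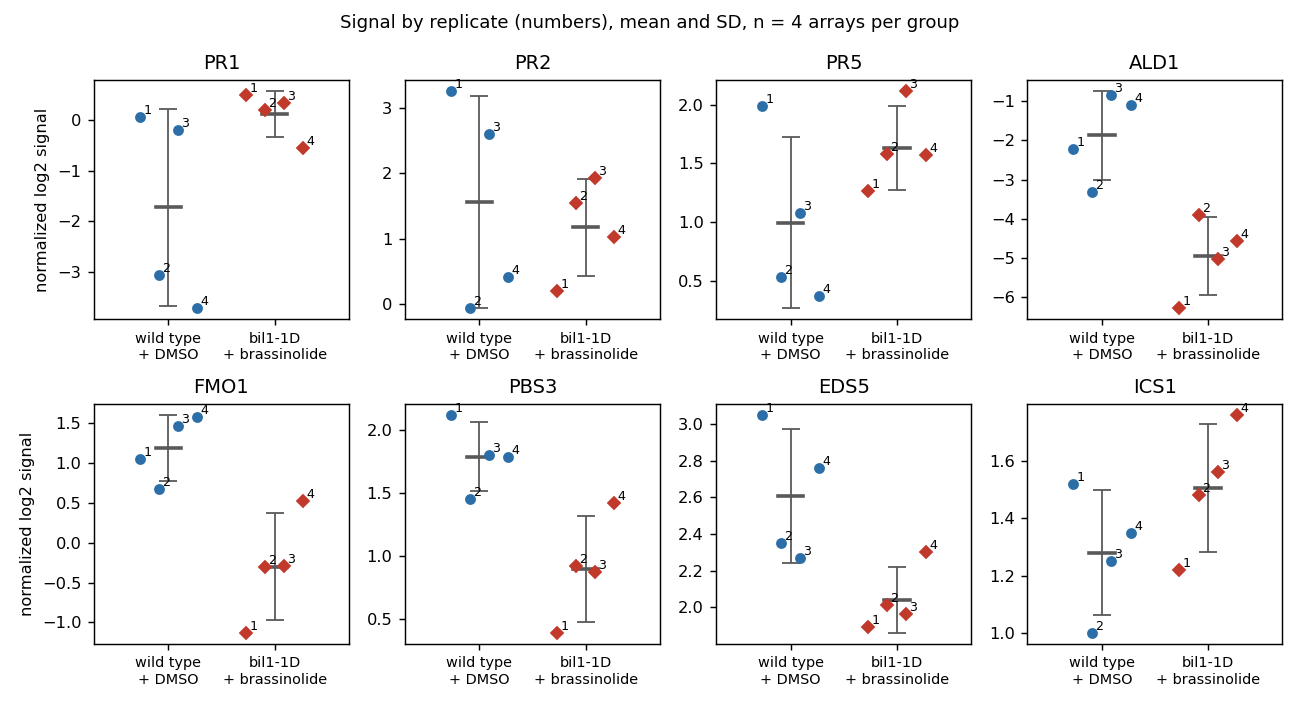
Normalized log2 signal (vertical axes, scaled per gene) of 3 PR genes, 2 pipecolic acid genes and 3 salicylate synthesis genes in each sample, numbered by replicate, with mean and SD over 4 arrays per group. For PR1, PR2 and PR5 wild-type replicates 1 and 3 lie above 2 and 4, while for ALD1, FMO1 and PBS3 the groups do not overlap.

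The arrays of a group differed more for these genes than for most. The median SD of the members was 0.26 over the wild-type arrays and 0.15 over the bil1-1D arrays, against 0.12 and 0.09 for all genes. The SD was larger in the wild type for 25 of 34 members (73.5%) and for 60.5% of all genes. Wild-type replicate 1 was the highest wild-type array for 25 of 34 members (73.5%), where it was highest for 25.2% of all genes, and it was the lowest for 0 members, where it was lowest for 40.3% of all genes. Wild-type replicate 3 was the lowest for 18 members (52.9%, against 26.1% of all genes) and replicate 2 for 12 (35.3%, against 12.9%). Among the bil1-1D arrays, replicate 1 was the lowest for 18 members (52.9%, against 25.7%) and replicate 2 the highest for 16 (47.1%, against 20.9%). Wild-type replicates 1 and 2 and bil1-1D replicate 4 carried the scanner software's mark for evaluation. Without these 3 arrays 7 members rose and 9 fell: CERK1, BIK1, MPK4 and AZI1 lost their calls and NPR1 passed.

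**Figure D3:**
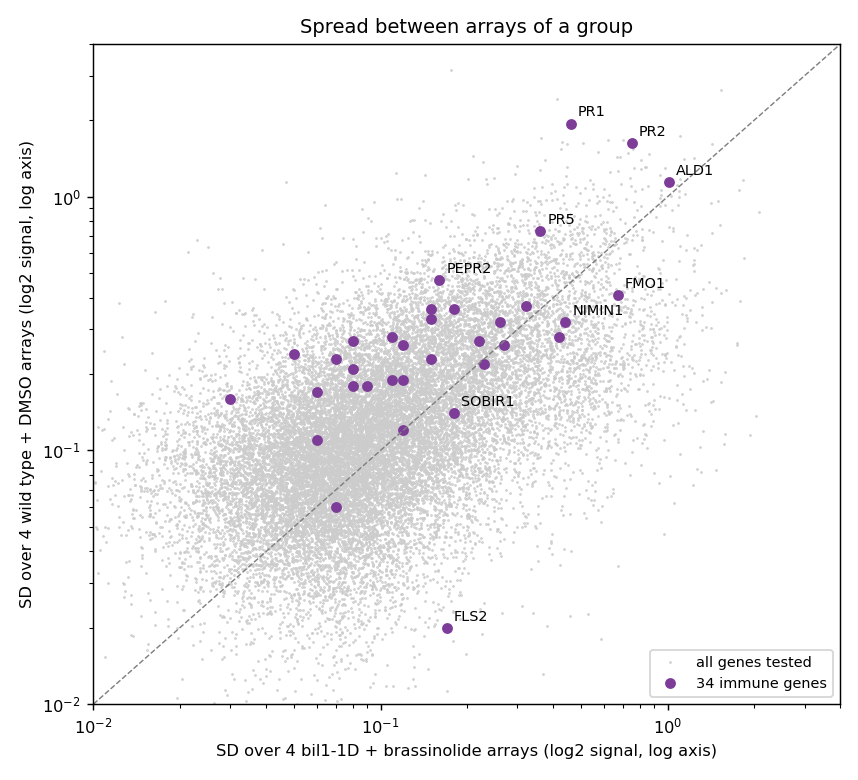
SD of the normalized log2 signal over the 4 bil1-1D brassinolide arrays (horizontal, log axis) and over the 4 wild-type DMSO arrays (vertical, log axis) for all 22082 genes tested (grey) and the 34 immune genes (purple). The dashed line marks equal SD. PR1 and PR2 lie at 1.94 and 1.63 on the vertical axis, above nearly all genes, and FLS2 lies far below the line.

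Related genes were also compared within each array, where any scaling of whole arrays cancels. For 18 pairs, chosen after the values of single genes were seen, the log2 difference of the 2 genes was taken on each array and compared between the groups by a two-sided exact permutation test over the 8 arrays, whose smallest possible p is 0.0286. After adjustment over the 18 pairs, 13 passed, each at that smallest p (adjusted p = 0.0396) and without overlap of the groups. Taken singly, 52.2% of all genes tested had no overlap of the groups. The share of unselected pairs without overlap was not computed, so the count of 13 is not a result about these pairs. Since these pairs were picked with their changes known, the p-values are a description of how cleanly the arrays separate. Such a difference shows unequal change, and not which of the 2 genes moved.

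Between the flagellin and EF-Tu receptors, FLS2 minus EFR was larger by 1.13 ± 0.13 in bil1-1D with brassinolide. With the mean of the EFR probes that difference was 0.37 and did not pass (adjusted p = 0.103). PEPR1 kept 0.72 ± 0.13 more than PEPR2, and PBL1 gained 0.89 ± 0.08 over BIK1. Among the relay genes, MPK3 gained 0.38 ± 0.08 over MPK6 and 0.81 ± 0.09 over MPK4, and RBOHD gained 0.35 ± 0.10 over RBOHF.

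In the salicylate pathway, ICS1 gained 0.79 ± 0.12 over EDS5 and 1.12 ± 0.11 over PBS3. ICS1 minus PBS3 was -0.61 to -0.44 in the wild type and 0.35 to 0.83 in bil1-1D with brassinolide, well apart. EDS1 gained 1.08 ± 0.10 over PAD4 and 1.13 ± 0.12 over SAG101, whereas PAD4 and SAG101 differed from each other by 0.05 ± 0.15 (adjusted p = 0.686). NPR4 gained 1.23 ± 0.19 over NPR3, and NIMIN1 gained 0.73 ± 0.17 over NIMIN2. The NIMIN difference did not pass with normexp background correction (0.46, adjusted p = 0.171).

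PR1 and PR2, neither of which passed alone, were another of the pairs. PR1 minus PR2 was 0.30, -1.35, -1.59 and -1.57 on bil1-1D replicates 1 to 4 and -3.20, -2.99, -2.82 and -4.14 on wild-type replicates 1 to 4. The bil1-1D values were all higher, by 2.23 ± 0.54 on average, in a pair picked after both changes were seen. Besides PAD4 and SAG101, 4 pairs did not pass: SOBIR1 against BIR1 (0.21 ± 0.10, adjusted p = 0.103), SARD1 against CBP60g (-0.21 ± 0.29, adjusted p = 0.484), FMO1 against ALD1 (1.6 ± 0.52, adjusted p = 0.0735) and PR1 against PR5 (1.21 ± 0.73, adjusted p = 0.225). The first and the third of these passed with normexp background correction (0.34 and 1.45, adjusted p = 0.0367 each).

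**Figure D4:**
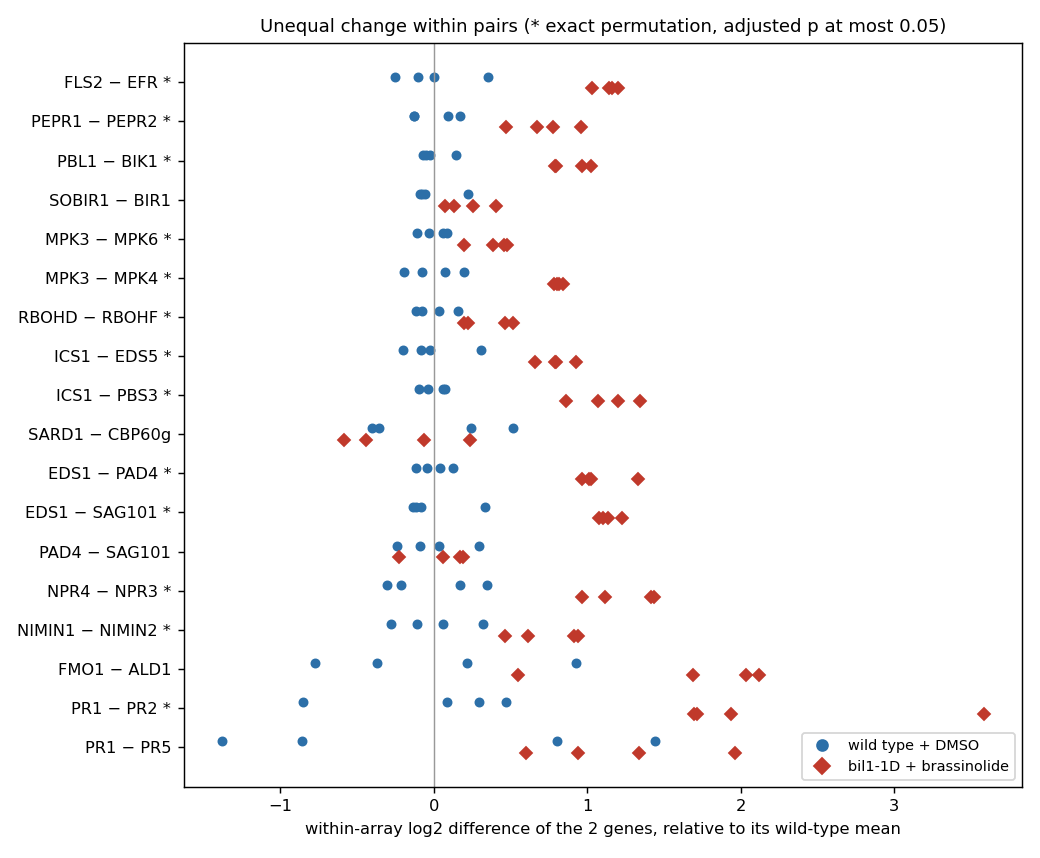
Within-array log2 difference of 2 related genes on each array, relative to its mean over the wild-type arrays (horizontal axis, log2). Circles are wild type with DMSO, diamonds are bil1-1D with brassinolide, and an asterisk marks an adjusted exact p of at most 0.05 over 18 pairs. In 13 pairs all diamonds lie to the right of all circles.

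Of 53 other listed genes of the same pathways 51 were tested, of which 13 rose, 14 fell and 24 did not pass, with a median change of 0.03. The shares called are close to those of all genes given above. Of 7 co-receptor and receptor-complex genes, 3 rose and 2 fell. BAK1 read 0.79, 0.69, 0.70 and 0.77 against 1.48, 1.31, 1.07 and 1.33, lower on every bil1-1D array, and fell by 0.56 ± 0.08 (adjusted p = 8.51e-04). LYK5, the chitin-binding partner of CERK1, read -0.60, -0.48, -0.46 and -0.57 against -1.01, -1.28, -1.56 and -1.30 and rose by 0.76 ± 0.11 (adjusted p = 6.64e-04). These are the directions of FLS2 and EFR for BAK1, and of CERK1 for LYK5. Of 8 upstream kinases 2 rose and 2 fell, among them the MAP kinase kinase gene MKK2, which rose by 0.24 ± 0.08 (adjusted p = 0.0334), and the calcium-dependent kinase gene CPK6, which fell by 0.79 ± 0.12 (adjusted p = 0.00103). The MKK2 call was lost in 9 alternatives, among them spike-in scaling (0.12) and those without bil1-1D replicate 2, 3 or 4 or wild-type replicate 1, 2 or 4 (0.19 to 0.24, adjusted p from 0.0655 to 0.0861).

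Of the 9 salicylate metabolism genes tested 0 rose and 5 fell, with a median change of -0.42. For this list and those below, the shares of all genes were 30.2% rising and 25.7% falling. EPS1, which acts after PBS3 in the release of salicylate, read -3.43, -3.68, -3.60 and -3.59 against -2.52, -2.46, -2.50 and -2.48. All bil1-1D arrays were lower, by far more than the spread within a group, and EPS1 fell by 1.09 ± 0.06, which is 2.12-fold (adjusted p = 7.39e-06). Of 11 further regulators 3 rose and 3 fell, including CAMTA3, a calmodulin-binding repressor of EDS1 and salicylate genes, which rose by 0.27 ± 0.08 (adjusted p = 0.0212), and NDR1, a membrane protein needed by several resistance proteins, which fell by 0.55 ± 0.08 (adjusted p = 5.71e-04). NDR1 was dim, at -6.06 to -5.30, and with normexp on negative controls its difference was -0.01 (adjusted p = 0.896). The CAMTA3 call was lost in 6 alternatives, among them spike-in scaling (0.15) and those without bil1-1D replicate 2 or 3 or wild-type replicate 2 (0.25 to 0.26, adjusted p from 0.0531 to 0.0581). Of 10 WRKY transcription factor genes 3 rose and 2 fell. The related WRKY18 and WRKY40 went opposite ways: WRKY18 was 3.80 to 3.93 against 2.44 to 2.92, and WRKY40 was 0.44 to 0.76 against 2.36 to 3.28. Of 6 further elicitor- or pathogen-induced genes 2 rose, including PR4 by 0.41 ± 0.11 (adjusted p = 0.0115; 0.28 and not passed with spike-in scaling, adjusted p = 0.441), and 0 fell.

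**Figure D5:**
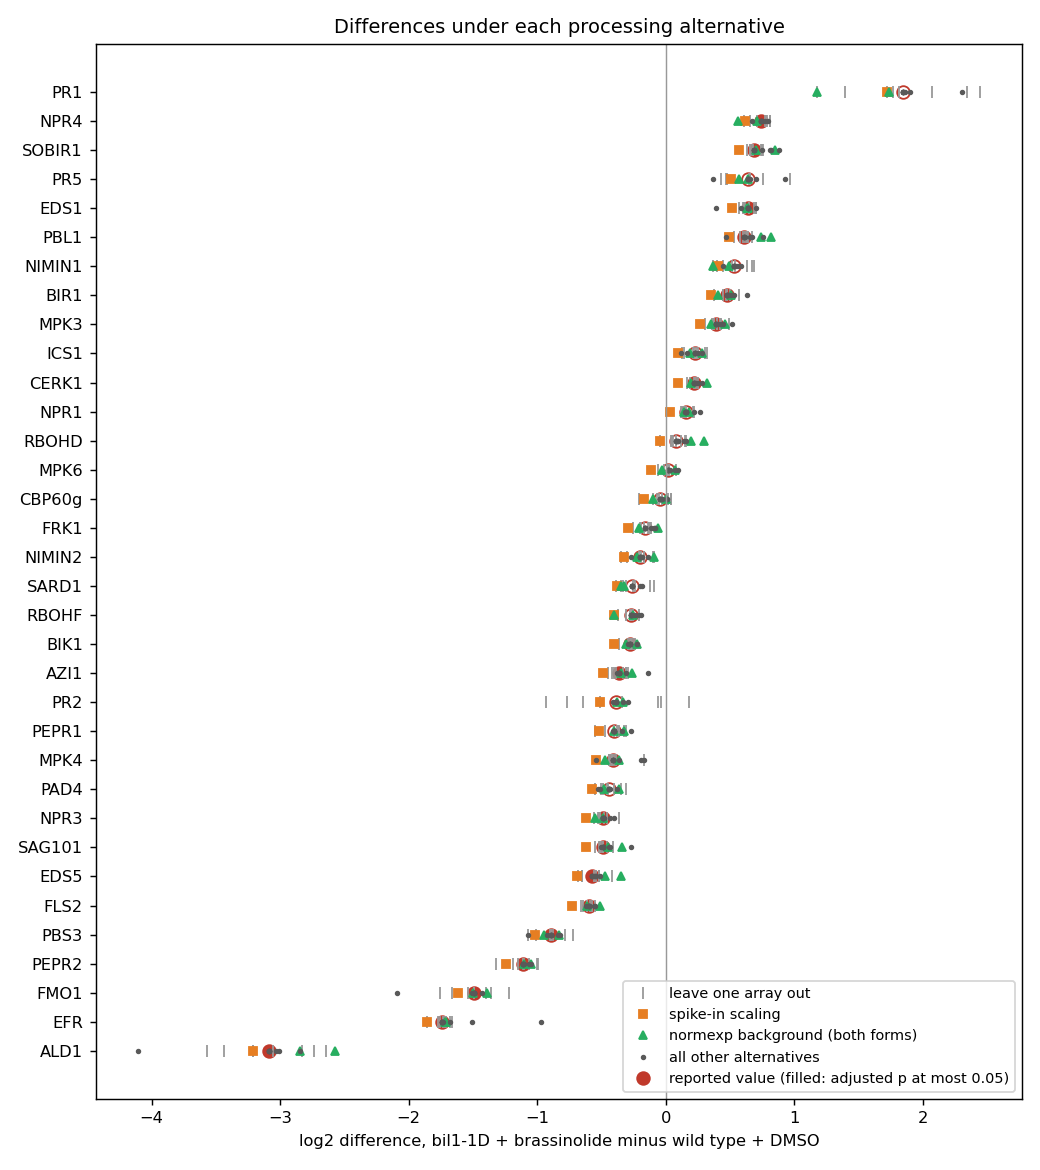
Log2 difference of each of the 34 genes (bil1-1D brassinolide minus wild type DMSO) as reported (large circle, filled if the adjusted p is at most 0.05) and under 21 processing alternatives. Grey ticks leave out 1 array, orange squares use spike-in scaling, green triangles use normexp background correction and dark dots are the other alternatives. No filled circle has a mark across 0, while PR1 and PR2 shift most when 1 array is left out.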

How the data were processed

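Transcript levels were measured on 8 single-colour Agilent arrays (design 021169), 4 per group by the labels. The spot intensities are the authors' deposited output of Agilent Feature Extraction. Per the file headers they are background-subtracted, detrended and not normalized across arrays, and the version is 11.5.1.1; the submitters' processing notes name 9.1.3.1. The authors' deposited value table, with 1 number for each probe on each array, follows the natural log of intensity (slope 0.983 to 1.01), with a median of -0.970 in each column. Its log base is inferred, its centring is unknown, its direction (higher is brighter) comes from the slope, and it served as an alternative only.

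Here the 93 outlier spots were left out, spots of a probe were averaged, and the log2 of intensity over the array's 75th percentile (control probes excluded, floor 0.001) was taken from the deposited intensities. Of 43603 probes, 36163 matched 1 locus through the RefSeq gene table. A probe entered the test if all 4 arrays of either group were well above background and all 8 had a value, and a gene was its brightest such probe. Groups were compared by limma's moderated test (version 3.58.1 under R 4.3.3) without covariates. P-values were adjusted by Benjamini-Hochberg across 22082 genes, with a threshold of 0.05. The fit was tested on simulated data in which few genes changed. That simulation left out the scaling of arrays, so it cannot vouch for calls that depend on the scaling. The number of arrays limits the precision, and 0 spots were saturated. Pairs were compared in Python 3.11.15 with scipy 1.17.1.

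The members, lists, named-gene rule and alternatives were chosen with earlier results of these data known. The rule names all members and, per other list, the largest rise and fall among called genes detected on every array. The alternatives were quantile, median and spike-in scaling, normexp (offset 50) on the median spot signal with local background or 153 negative-control spots, the value table, other filters and probe rules, trend and robust eBayes, a replicate block, and leaving out arrays; keeping probes with an outlier spot was added after seeing the data. A slide block could not be fitted, since each slide holds 1 group. Gene and probe sequences were not used here.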

Additional observations from a re-analysis of the deposited data

Results flagged for a closer look

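In 4 of the 88 groups of 4 arrays examined (the members and the other named genes in both conditions), 1 array stood apart from the others by more than Dixon's critical share of the group's range. Chance alone gives about 5% of groups. FLS2 in wild-type replicate 4 was 1.41, with the next array at 1.36, a gap that is small in absolute size because the other wild-type arrays were nearly equal. SOBIR1 in wild-type replicate 1 was 3.38, with the next at 3.14. MPK6 in bil1-1D replicate 4 was 1.55, with the next at 1.44, and NPR3 in wild-type replicate 1 was 0.07, with the next at -0.43.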

How the results depend on the processing

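FLS2, EFR, PEPR2, PBS3, NPR4, ALD1 and FMO1 kept their call and direction in all 21 alternatives, and no called member turned direction in any. Spike-in scaling shifted the all-gene median by -0.12 and changed the counts most: 1402 genes rose and 3012 fell (6673 and 5671 as reported), 2 members rose and 6 fell (7 and 12), and 3 other pathway genes rose and 9 fell (13 and 14). Normexp background correction moved the median by -0.20 and left 3967 rising genes, with 7 members rising and 9 falling; the cause was not tested. Leaving out 1 array gave 6 to 10 rising and 10 to 15 falling members. The replicate block gave 7 rising and 14 falling members, 9 and 13 other pathway genes, and 6093 and 5244 of all genes. After each gene's group mean was subtracted, same-numbered arrays correlated by only -0.28 to 0.17. Of the arrays, 3 of 8 correlated best with their own number. The labels do not say whether a shared number marks shared handling. Differences that changed sign were all uncalled on both sides. MPK6 was -0.11 with spike-in scaling, -0.028 with normexp on negative controls and -0.06 (without wild-type replicate 3) to 0.08 without 1 array, and -0.011 without bil1-1D replicate 4. RBOHD was -0.047 with spike-in scaling and -0.044 (without wild-type replicate 3) to 0.16 without 1 array. CBP60g was 0.012 with median scaling, 0.002 with normexp, 0.013 without the marked arrays and -0.21 to 0.043 without 1 array, where it was 0.015 without bil1-1D replicate 2 and 0.039 without wild-type replicate 1. PR2 was -0.93 to 0.18 without 1 array, the latter without wild-type replicate 1. PAD4 minus SAG101 was -0.016 and -0.034 with the normexp forms, -0.24 with the mean of probes, -0.09 without the marked arrays and -0.027 without wild-type replicate 2 (0.15 at most without 1 array). With 1 array left out, the called pairs that lost their call in some runs were MPK3 minus MPK6, RBOHD minus RBOHF and NIMIN1 minus NIMIN2. Their adjusted exact p was then 0.0686 to 0.0791. Without the marked arrays none of the called pairs passed (adjusted exact p from 0.15 to 0.257), since too few arrays were left for the exact test to reach 0.05. All 34 members were well above background, so none was left out for low signal. For NDR1, a dim gene of the other lists, the change depended on the background correction (-0.55 as reported, -0.01 with normexp on negative controls). ALD1 was also dim, at -6.29 to -3.9 in bil1-1D, and its change ranged from -4.11 to -2.57 over the alternatives. Whether low signal altered the size of the ALD1 change was not tested.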

Other observations

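Some further genes were chosen after their values were seen. DMR6 and DLO1, which hydroxylate salicylate and so lower it, varied in the wild type like the PR genes. DMR6 was 0.23, -1.16, 0.25 and -1.23 on wild-type replicates 1 to 4 and -0.50 to 0.33 in bil1-1D with brassinolide. DLO1 was -1.27, -3.89, -1.89 and -4.04 on the same wild-type arrays, and it ranged from -3.29 to -2.48 in bil1-1D. Neither passed the comparison between groups (differences 0.33 ± 0.41 and 0.03 ± 0.63, limma adjusted p = 0.512 and 0.975). PAL1, PAL2 and PAL4, which make cinnamic acid from phenylalanine, fell by 0.88 ± 0.15, 1.01 ± 0.16 and 0.63 ± 0.07 (adjusted p = 0.00144, 9.67e-04 and 1.45e-04), while PAL3 differed by 0.10 ± 0.09 (adjusted p = 0.391).

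Relatives of the PR genes lie beside them on the chromosome, and the difference between neighbours was not tested. PRB1, the basic PR1-like gene next to PR1, fell by 1.00 ± 0.22 (adjusted p = 0.00589), where PR1 differed by 1.85 ± 0.86. TLP-3, a thaumatin-like gene next to PR5, rose by 1.04 ± 0.10 (adjusted p = 7.69e-05). Near PR2, BG1 and BG3 differed by 0.90 ± 0.35 and 0.73 ± 0.50 and did not pass (adjusted p = 0.0570 and 0.250). Whether probes of these close copies also bind each other's transcripts was not tested.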
